A study of Mus musculus with 6 samples.

Results

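The 10 genes described here encode 5 ubiquitin ligases or ligase subunits of striated muscle (Trim63, Trim54, Trim55, Trim32 and Fbxo32) and 5 proteins of autophagy and the lysosome (Sqstm1, Bnip3, Gabarapl1, Map1lc3a and Ctsl). They were chosen by name, with earlier results of these data known. All 10 were found among the 24391 gene entries of the deposited table and among the 13032 genes tested. RNA was sequenced from cardiac ventricles of C57BL/6 mice with a loss of function of Klf15 (KO) and from wild-type mice (WT). KLF15 is a zinc finger transcription factor known from muscle, liver and heart for its part in fuel use. The groups were P10 KO and P10 WT (postnatal day 10), 4w KO and 4w WT (4 weeks), and 20w KO and 20w WT (20 weeks), with 3 libraries each, 18 in all. How the loss of function was made, and the promoter or cell type behind it, is not given in the sources used here. No label states that the libraries came from separate animals, so each p-value measures only the spread between these libraries, which may be partly technical.

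Striated muscle removes its own protein mainly by the ubiquitin-proteasome system and by autophagy. In the ubiquitin system a ligase selects the substrate. The MuRF proteins are ligases that sit on the sarcomere, and atrogin-1, the product of Fbxo32, is the substrate-binding subunit of a cullin complex. In autophagy a membrane studded with proteins of the LC3 and GABARAP family closes around cargo held by receptors such as p62, the product of Sqstm1, and then fuses with the lysosome, where cathepsins digest the contents. FoxO factors and the glucocorticoid receptor are known activators of Trim63 and Fbxo32 in skeletal muscle, where these genes are markers of atrophy.

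Two-sided tests used limma with Benjamini-Hochberg adjustment over the 13032 genes. A gene was called, and is said to rise or fall, at an adjusted p under 0.05. A log2 change is KO minus WT, or older minus younger, of log2(normalized count + 1). Values are normalized counts unless stated otherwise.

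Klf15 itself was at 25.4, 17.4 and 24.7 in the P10 KO libraries, against 139.7, 164 and 145 in the P10 WT libraries. Its level fell in KO at P10 (-2.69, adjusted p = 1.3e-07), at 4w (-4.67, adjusted p = 5.1e-12) and at 20w (-4.65, adjusted p = 3.7e-12), with no overlap between the groups at any age. Depth was 9504538 to 29278351 gene reads a library. Rn45s, a ribosomal RNA gene, took 30.8% of the second 4w KO library and 0.22% to 2.72% of each other library. All 8 cardiomyocyte markers were detected in each group. The 9 skeletal muscle markers summed to 776 in the second 4w WT library and to at most 64.1 in any other library. All 6 libraries of P10 carried both Xist and the Y-linked Ddx3y, as a mix of female and male RNA would. No label says whether they were pools, so their spread may be unlike that of the later libraries. Xist was at most 9.4 at 4w and 20w, so age cannot be told apart from the sex of the animals that P10 libraries were made from. At P10, Xist was at 6612, 4814 and 5545 in KO, against 11077, 5229 and 9514 in WT. These values overlapped, and the part of a different mix of sexes in the P10 differences between KO and WT was not tested. In bulk tissue, fewer cells of a type and less RNA per cell cannot be told apart either.

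The sequence before the start of 7 of the 10 genes could be read from the RefSeq promoter table (GRCm38.p6). Those of Trim63 and Trim54 are shown because Trim63 is the classical FoxO and glucocorticoid target among the ligases and Trim54 is the ligase that differed most between KO and WT. Both run 5′ to 3′ on the + strand over the 250 bases before the start, with matches to the motifs searched in capitals. In the Trim63 sequence (chr4:134314870-134315119) the capitals are a glucocorticoid receptor half-site, TGTTCT, at -200 from the start, and the reverse of the FoxO core GTAAACA adjoining it at -194. In the Trim54 sequence (chr5:31116362-31116611) they are the reverse of the half-site at -222 and KLF boxes, CCACCC, at -154 and -46.
Trim63: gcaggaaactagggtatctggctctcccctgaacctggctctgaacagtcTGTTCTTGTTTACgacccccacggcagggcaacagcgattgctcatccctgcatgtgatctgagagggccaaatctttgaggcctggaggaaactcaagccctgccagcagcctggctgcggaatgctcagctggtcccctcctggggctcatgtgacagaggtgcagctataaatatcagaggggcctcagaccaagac
Trim54: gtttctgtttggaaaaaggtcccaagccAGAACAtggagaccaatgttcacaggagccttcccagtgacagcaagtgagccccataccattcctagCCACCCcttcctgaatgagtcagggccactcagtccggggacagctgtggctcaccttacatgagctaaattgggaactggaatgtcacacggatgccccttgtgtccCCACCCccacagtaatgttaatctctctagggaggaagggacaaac
A further KLF box, on the reverse strand, lay 25 bases after the start of Trim54. Searched on both strands over 250 bases before and 50 after the start, the FoxO core was found in 3.6% of all 32851 promoters of the table, the KLF box in 31.5% and the half-site in 19.0%. The E-box CACGTG was found in 7.2%, and the CLEAR core CACGTGA of TFEB, which contains the E-box, in 3.8%. Gabarapl1 had KLF boxes at -78, -36 and 29, Ctsl had a box at -102 and Trim32 a box at 37, and an E-box lay at -108 in Bnip3 and at -236 in Ctsl. The Sqstm1 window held none of these letters. The windows of Trim55, Fbxo32 and Map1lc3a were not analysed here. Positions are counted from the RefSeq start and depend on the annotation. The whole Ctsl window (chr13:64370471-64370770, - strand) lay inside Ctsl as annotated in GENCODE, where the gene ends at 64370890. In GENCODE Trim54 starts at 31116712, past the end of its window at 31116661. A match is a string of letters and not a tested site.

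The transcripts spanned a wide range of levels. Per kilobase of exon, Map1lc3a, which encodes an LC3 protein of the autophagosome membrane, was the highest of the 10 in 20w WT, at 3266 ± 147 normalized counts per kb (mean ± SD, n = 3 libraries). Sqstm1 (1639 ± 129 per kb) and Trim54 (1583 ± 65.8 per kb) came next, and their libraries overlapped. Fbxo32 (964 ± 89.9 per kb) and Trim63 (912.5 ± 48.7 per kb) followed, also overlapping each other.
Gabarapl1 stood at 649 ± 47.2 per kb, below the range of Trim63. Trim55 (412 ± 26.3 per kb), Bnip3 (353 ± 53.8 per kb) and Ctsl (337 ± 6.3 per kb) formed a group in which each overlapped its neighbour, and Trim32 was lowest at 74.6 ± 4 per kb. In P10 WT the mean of Trim54 was 189 ± 59.3 per kb, below that of every other member but Bnip3 and Trim32, and its libraries overlapped those of Gabarapl1. Exon lengths were those of a GRCm38 annotation and not of the annotation the authors counted on. The plot of normalized counts by library shows all 10 genes.

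**Figure D1:**
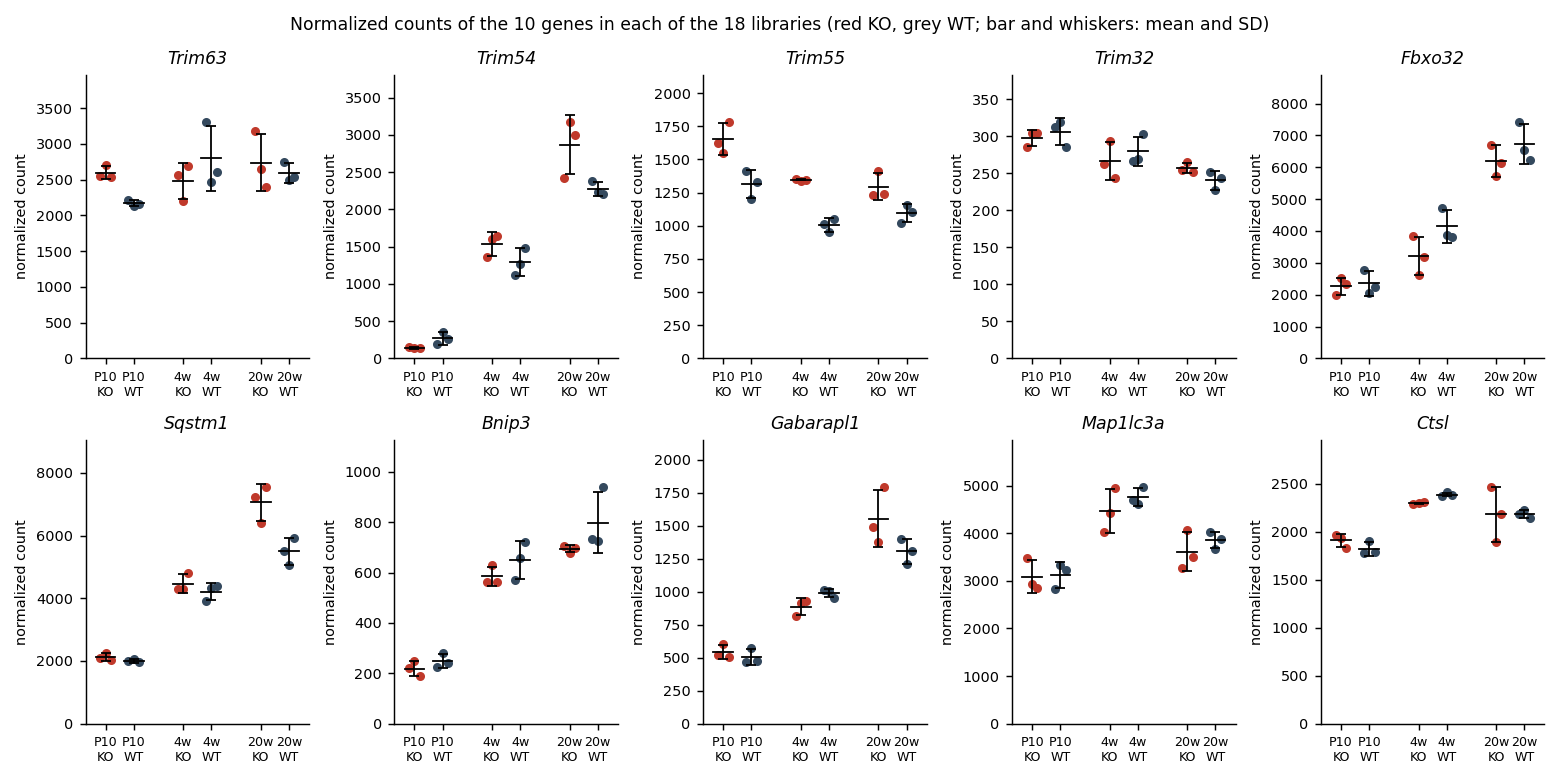
Normalized counts (linear axis from 0) of the 10 genes in each of the 18 libraries, with KO in red, WT in grey, and the mean and SD of 3 libraries as bar and whiskers. Trim54 lies between 133 and 157 in the P10 KO libraries, below the 189 to 359 of the P10 WT libraries, and between 2207 and 3177 in the 20w libraries.

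At P10 the comparison asked what loss of Klf15 did in the early postnatal ventricle. Of the 10 genes, 1 rose and 1 fell in KO, against 2.26% of all genes called in that comparison. With a common total 0 rose and 1 fell. Both genes were MuRF genes. Trim54, whose product MuRF3 binds microtubules and the sarcomere, fell. Trim55, which encodes MuRF2, a partner of titin near the M-band, rose. None of the 5 autophagy genes was called with limma, edgeR or DESeq2, and none had an unadjusted p under 0.05 with limma.

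Trim54 was at 156.5, 133 and 136 in the P10 KO libraries, against 189, 359 and 265 in the P10 WT libraries, from 160 to 433 reads a library. Each KO library lay below each WT library, and the WT libraries were spread more widely than the KO ones. The log2 change was -0.89 (± 0.16 SE, 95% interval -1.22 to -0.55, adjusted p = 0.0042), a 1.85-fold lower level. The call held in all 18 alternative analyses, with log2 changes of -1.12 to -0.66. Exons of the antisense gene Gm15469 overlap Trim54 (18.44% of its 50-base windows), and without a stated strand setting their reads cannot be told apart.
Trim55 was at 1620.5, 1548 and 1783.5 in P10 KO, against 1414, 1202 and 1327 in P10 WT, with no overlap (0.33, 95% interval 0.16 to 0.49, adjusted p = 0.033). This call was lost in 9 of 18 alternative analyses, among them those that left out the P10 WT library 2 or 3 or any 1 of the P10 KO libraries, while its log2 change stayed between 0.27 and 0.38 (adjusted p 0.0041 to 0.56). Trim63, which encodes MuRF1, the ligase best known from muscle wasting, was at 2546, 2705.5 and 2544 in P10 KO, against 2221, 2136 and 2159 in P10 WT. These groups did not overlap either, but the difference did not pass the test (0.26, 95% interval 0.04 to 0.48, adjusted p = 0.25). Of the 18 alternatives for Trim63, it passed only in limma with library weights (adjusted p = 0.022).
Fbxo32 overlapped between the genotypes at P10, with 1978 to 2508 in KO and 2044 to 2784 in WT (-0.05, 95% interval -0.32 to 0.23, adjusted p = 0.93). Trim32, a ligase of thin filament proteins and desmin, overlapped too, with 285 to 304 in KO and 286 to 319 in WT (-0.04, 95% interval -0.23 to 0.15, adjusted p = 0.91).

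Among the autophagy genes at P10, all 5 overlapped between KO and WT. Sqstm1 was at 2023 to 2259 in P10 KO and 1959 to 2068 in P10 WT (0.09, 95% interval -0.08 to 0.25, adjusted p = 0.71). The mitophagy receptor gene Bnip3 was at 187 to 247 in KO and 227 to 281 in WT (-0.19, 95% interval -0.44 to 0.05, adjusted p = 0.5).
Bnip3 values are uncertain, because 47.17% of its 50-base windows also occur in other annotated transcripts. Antisense transcripts likewise overlap exons of Fbxo32 (2.57% of windows shared with any other gene), Gabarapl1 (23.14%) and Ctsl (26.33%), and their reads cannot be told apart without a strand setting. The one at Gabarapl1, 1700101I11Rik, was at 0.8 to 41.3 over all libraries. Gabarapl1, Map1lc3a and Ctsl had log2 changes of 0.10, -0.02 and 0.07, and their 95% intervals lay between -0.22 and 0.31. Summed markers of smooth muscle and pericytes were higher in P10 KO (28410 to 31516) than in P10 WT (24646 to 25937) without overlap, and those of fibroblasts were lower in KO (45568 to 48402) than in WT (48833 to 54523). Summed cardiomyocyte markers overlapped (751944 to 826553 in KO and 678547 to 764652 in WT). Those of erythroid cells were lower in KO (478 to 562) than in WT (666 to 821), also without overlap. Tested singly with limma at P10, 1 of 8 smooth muscle and pericyte markers rose. Of 8 fibroblast and 3 erythroid markers 0 were called. Summed atrial markers were at 4701 in the second P10 WT library, which had the highest Trim54 value at P10, and at 706 to 1341 in the other P10 libraries. Without that library the log2 change of Trim54 was -0.66 (adjusted p = 0.025). The part of these marker shifts in the other P10 results was not tested.

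At 4 weeks 1 of the 10 genes rose in KO and none fell, against 5.65% of all genes called. With a common total 0 rose and 1 fell. The gene that rose with the deposited scaling was again Trim55. It was at 1349, 1341 and 1348.5 in the 4w KO libraries, against 1013, 952 and 1051 in the 4w WT libraries. The KO libraries lay within a narrow band above all WT libraries, and the log2 change was 0.42 (± 0.08 SE, 95% interval 0.26 to 0.59, adjusted p = 0.0026).
Scaling to a common total lowered it to 0.18 (adjusted p = 0.39) while shifting the median of all genes by -0.24, and leaving out the 4 libraries highest in Rn45s gave 0.39 (adjusted p = 0.06), while over all 18 alternatives the adjusted p ran from 9e-05 to 0.39.

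Fbxo32 was at 3831, 2623 and 3184 in 4w KO, against 4725, 3884 and 3819 in 4w WT. Of the KO libraries 2 lay below all WT libraries and 1 overlapped them, and the difference did not pass the test (-0.38, 95% interval -0.65 to -0.10, adjusted p = 0.11). It did pass with a common total (-0.62, adjusted p = 0.035) and without the first 4w KO library (-0.51, adjusted p = 0.045), and it was -0.24 (adjusted p = 0.45) without the second 4w KO library, which carried the high share of Rn45s. Over all its alternatives the adjusted p ran from 0.035 to 0.51.
Trim54 was at 1357, 1605 and 1646 in 4w KO, against 1122, 1272 and 1486 in 4w WT. Those groups overlapped, and the difference was not a call (0.25, 95% interval -0.08 to 0.59, adjusted p = 0.46). Trim63 ranged over 2199 to 2694 in KO and 2472 to 3309 in WT (-0.16, 95% interval -0.38 to 0.05, adjusted p = 0.46), again with overlap. The second 4w WT library was the one high in skeletal muscle markers. Without it, limma gave -0.25 for Trim63 (adjusted p = 0.3) and 0.25 for Trim54 (adjusted p = 0.6). Fbxo32 was then at -0.42 (adjusted p = 0.15) and Trim55 at 0.38 (adjusted p = 0.022).
Trim32 did not pass the test either (-0.07, 95% interval -0.26 to 0.12, adjusted p = 0.77). The 5 autophagy genes had log2 changes between -0.16 for Gabarapl1 and 0.09 for Sqstm1, and none passed the test with limma, edgeR or DESeq2 or had an unadjusted p under 0.05 with limma. Gabarapl1 did not overlap between the genotypes (812 to 933 in KO and 953 to 1013 in WT). Nor did Ctsl (2291 to 2308 in KO and 2378 to 2411 in WT). As neither was called, the lack of overlap is a description only. Summed fibroblast markers were lower in 4w KO (16351 to 18001) than in 4w WT (19283 to 22461). Those of nerve and Schwann cells (63.2 to 101.4 in KO and 107.2 to 118.3 in WT) and of adipocytes (12.2 to 18.9 in KO and 29.8 to 44.4 in WT) were lower in KO as well, without overlap. Tested singly with limma at 4w, 2 of 8 fibroblast markers fell and 0 of 3 nerve and Schwann cell markers were called. Of 8 cardiomyocyte markers 1 rose, while their sums overlapped (1100521 to 1148402 in KO and 945782 to 1112152 in WT). No adipocyte marker was high enough to be tested. The part of these markers in the 4w values was not tested.

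At 20 weeks 1 of the 10 genes rose in KO and none fell, against 7.49% of all genes called. The gene was Sqstm1, whose product p62 links ubiquitin-tagged cargo to LC3. It was at 7219.6, 6412 and 7544 in the 20w KO libraries, against 5512, 5063 and 5928 in the 20w WT libraries. Every KO library was above every WT library, and the log2 change was 0.36 (± 0.08 SE, 95% interval 0.20 to 0.52, adjusted p = 0.0068), a 1.28-fold higher level.
The call was lost with a common total (0.35, adjusted p = 0.25) and without the second 20w WT library (0.30, adjusted p = 0.052), and over all alternatives the adjusted p ran from 0.00051 to 0.25. Exons of 3010026O09Rik (Mrnip) overlap Sqstm1 on the other strand, with 15.53% of the 50-base windows of Sqstm1 shared. That gene was at 15.1 to 57.6 over all libraries, and how many of its reads were counted for Sqstm1 cannot be told without a strand setting. Summed macrophage markers were also higher in 20w KO (3769 to 4127) than in 20w WT (3237 to 3617). Of the 8 macrophage markers 0 were called there with limma, and their part in the Sqstm1 result was not tested. Summed atrial markers were at 9604 in the third 20w KO library, which also had the highest Sqstm1 and Gabarapl1 values, and at 2743 to 3961 in the other 20w libraries. Without that library the log2 change of Sqstm1 was 0.31 (adjusted p = 0.046) and that of Gabarapl1 0.14 (adjusted p = 0.55).

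Trim54 was at 2424, 3177 and 3004 in 20w KO, against 2381, 2230.3 and 2207 in 20w WT. The groups did not overlap, and the difference did not pass the test (0.33, 95% interval -0.01 to 0.66, adjusted p = 0.25). Trim55 was at 1229.8, 1416 and 1241 in 20w KO, against 1019.7, 1158 and 1106 in 20w WT, also without overlap (0.24, 95% interval 0.08 to 0.41, adjusted p = 0.069).
Thus every KO library of Trim55 was above every WT library at each of the 3 ages. This is a description only, as the share of all genes without overlap is not given here. Trim55 passed the test at P10 and 4w. Both calls were lost with a common total and without the 4 libraries highest in Rn45s. Gabarapl1 ranged over 1376 to 1792 in KO and 1209 to 1399 in WT, with overlap (0.24, 95% interval 0.03 to 0.46, adjusted p = 0.17). Bnip3 ranged over 679 to 706 in KO and 725 to 939 in WT, without overlap (-0.19, 95% interval -0.44 to 0.05, adjusted p = 0.37).
The other genes overlapped and were not called. Their log2 changes at 20w were 0.07 for Trim63, 0.10 for Trim32, -0.12 for Fbxo32, -0.10 for Map1lc3a and -0.01 for Ctsl. The 95% interval of Fbxo32 ran from -0.39 to 0.16, and that of Trim63 from -0.15 to 0.29. The plot of KO minus WT differences gives all intervals.

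**Figure D2:**
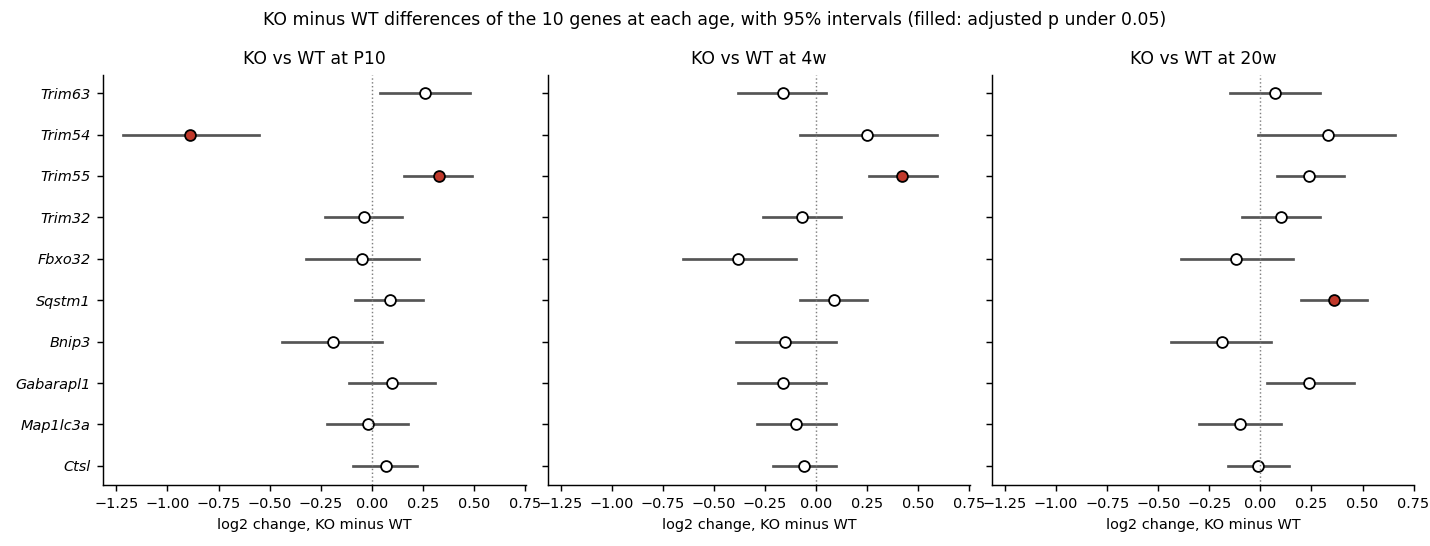
Log2 change (KO minus WT) of the 10 genes at P10, 4w and 20w, with 95% intervals from limma and filled points for adjusted p under 0.05. The filled points are Trim54 at P10 (-0.89), Trim55 at P10 (0.33) and at 4w (0.42), and Sqstm1 at 20w (0.36).

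Whether the KO effect differed between ages was tested as an interaction. Trim54 was the 1 gene of the 10 for which it did. Its KO effect was higher at 4w than at P10 by 1.14 on the log2 scale (± 0.23 SE, 95% interval 0.66 to 1.61, adjusted p = 0.016), against 1.26% of all genes called in that interaction. At 20w it was higher than at P10 by 1.21 (± 0.23 SE, 95% interval 0.74 to 1.69, adjusted p = 0.0047), against 3.74% of all genes called.
These 2 interactions share the P10 libraries. Those carried Xist, which was at most 9.4 at 4w and 20w, so age cannot be told apart from sex in either interaction. Without the 4 libraries highest in Rn45s, 1 from each group of 4w and 20w, they were 1.10 (adjusted p = 0.16) and 1.12 (adjusted p = 0.054), and with a common total the first was 0.90 (adjusted p = 0.091). Over all 24 alternatives the adjusted p ran from 1e-04 to 0.16 for 4w and from 7.7e-06 to 0.054 for 20w. Between 20w and 4w, where 0.192% of all genes were called, 0 of the 10 genes passed with limma, edgeR or DESeq2, and 2 had an unadjusted p under 0.05 with limma. Those were Gabarapl1 (0.40, 95% interval 0.10 to 0.71, adjusted p = 0.24) and Sqstm1 (0.27, 95% interval 0.04 to 0.50, adjusted p = 0.32). For Trim63 the interaction of 4w with P10 did not pass (-0.42, 95% interval -0.73 to -0.11, adjusted p = 0.2).

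The 3 MuRF genes together can be read as shares of their summed value per kb in a library. Trim54 made up 6.1% ± 0.6 (SD, n = 3 libraries) of that sum in P10 KO and 13.0% ± 4.0 in P10 WT. At 4w its share was 43.6% ± 3.3 in KO and 39.9% ± 5.5 in WT. At 20w it was 57.8% ± 5.3 in KO and 54.4% ± 0.6 in WT.
By this share per kb, Trim63 was the main MuRF transcript in the P10 libraries and Trim54 in the 20w libraries. The 20w order rests on the exon lengths of the GRCm38 annotation, 1.44 kb for Trim54 and 2.84 kb for Trim63. Before division by length, Trim63 (2490 to 2750) was above Trim54 (2207 to 2381) in 20w WT. In 20w KO Trim63 (2394.5 to 3176) and Trim54 (2424 to 3177) overlapped. The share of Trim63 was 56.0% ± 2.3 in P10 KO and 52.8% ± 1.2 in P10 WT, and 28.1% ± 5.3 in 20w KO and 31.4% ± 0.8 in 20w WT. The share of Trim55 in 4w KO (20.7% ± 1.1) was above that in 4w WT (16.7% ± 0.3) without overlap, while at 20w the KO (14.1% ± 0.4) and WT (14.2% ± 1.3) libraries overlapped. The shares are a description, and no test was run on them.

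**Figure D3:**
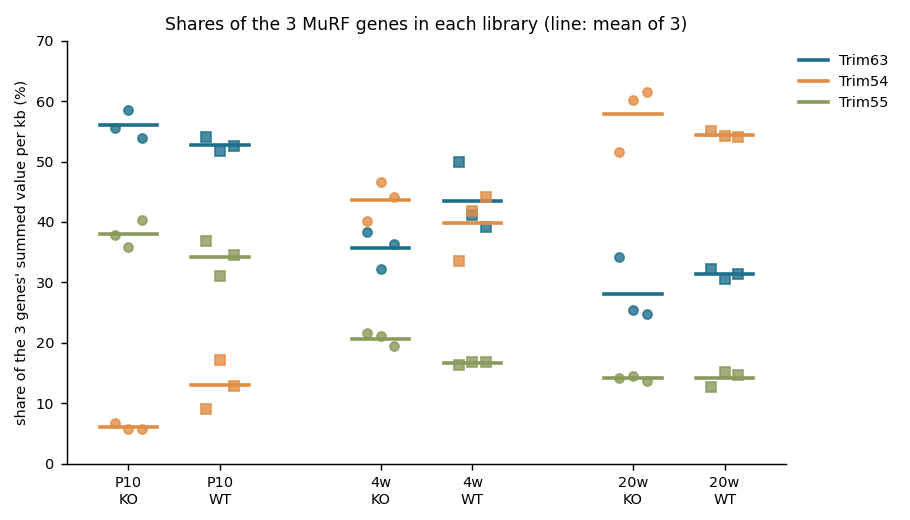
Share (%) of Trim63, Trim54 and Trim55 in the summed normalized counts per kb of the 3 genes, by library (circles KO, squares WT) with the mean of 3 libraries as a line. Trim54 averages 6.1% in P10 KO and 13.0% in P10 WT, and 57.8% in 20w KO and 54.4% in 20w WT.

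Most of these genes changed with age in both genotypes. In KO, 7 of the 10 rose and 1 fell between P10 and 4w, against 58% of all genes called, and in WT 8 rose and 1 fell, also against 58%. The median log2 change of the 10 was 0.51 in KO and 0.72 in WT, against 0.00 and -0.01 over all genes tested. The P10 libraries differ from the later ones in sex-linked transcripts as well as in age, as given above.
Trim54 changed most, by 3.43 (adjusted p = 3.3e-12) in KO and by 2.29 (adjusted p = 6.2e-10) in WT. Bnip3 rose by 1.42 in KO and 1.37 in WT, and Sqstm1 by 1.07 in KO and 1.07 in WT. Gabarapl1 rose by 0.71 in KO and 0.97 in WT.
Fbxo32 rose by 0.49 (adjusted p = 0.0034) in KO and by 0.82 (adjusted p = 2.5e-05) in WT. Map1lc3a rose by 0.53 (adjusted p = 8.1e-05) in KO and by 0.61 (adjusted p = 1.8e-05) in WT. Trim55 was the 1 gene that fell, by a log2 change of -0.29 (adjusted p = 0.0038) in KO and -0.38 (adjusted p = 0.00035) in WT. Trim63 rose in WT (0.35, adjusted p = 0.0071) and was not called in KO (-0.07, adjusted p = 0.59). Trim32 was called in neither genotype.
The directions of the smaller changes depended on the scaling. Scaling to a common total shifted the median of all genes by -0.49 in KO and -0.25 in WT in this age comparison, and then 3 of the 10 rose and 3 fell in KO and 6 rose and 2 fell in WT. With Rn45s left out of that total the shifts were -0.32 and -0.25, and 4 rose and 3 fell in KO and 6 rose and 2 fell in WT. Trim54, Sqstm1 and Bnip3 rose, and Trim55 fell, under each scaling in both genotypes.
Ctsl, which encodes the lysosomal protease cathepsin L, rose by 0.27 (adjusted p = 0.0046) in KO with the deposited scaling and was at -0.23 (adjusted p = 0.16) with a common total. Map1lc3a in KO was at 0.04 (adjusted p = 0.8) with a common total and at 0.22 (adjusted p = 0.059) with Rn45s left out of it. Gabarapl1 in KO was at 0.22 (adjusted p = 0.2) with a common total.
Fbxo32 in KO was at 0.00 (adjusted p = 1) and Trim63 in WT at 0.10 (adjusted p = 0.63) with that total. Trim63 (-0.56, adjusted p = 0.0035) and Trim32 (-0.65, adjusted p = 0.00037) fell in KO with it, and they fell by 0.39 (adjusted p = 0.007) and 0.48 (adjusted p = 0.00012) with Rn45s left out.

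Between 4w and 20w, 4 of the 10 rose and 1 fell in KO, against 19.3% of all genes called. In WT, 4 rose and 1 fell as well, against 25.1%. With a common total 4 rose and 0 fell in KO, and 2 rose and 1 fell in WT, where the median of all genes shifted by -0.14. With Rn45s left out of the total 4 rose and 1 fell in KO, and 3 rose and 3 fell in WT. With the deposited scaling the genes that rose were Trim54, Fbxo32, Sqstm1 and Gabarapl1 in both genotypes, and the gene that fell was Map1lc3a.
Fbxo32 was at 6713, 5721 and 6142 in 20w KO, against 3831, 2623 and 3184 in 4w KO (0.96, adjusted p = 4e-05). It was at 7426, 6539.7 and 6214 in 20w WT, against 4725, 3884 and 3819 in 4w WT (0.70, adjusted p = 0.00074). No 20w library overlapped a 4w library of its genotype.
Sqstm1 rose by 0.66 (adjusted p = 8.9e-06) in KO and by 0.39 (adjusted p = 0.0015) in WT. Gabarapl1, a GABARAP family protein of the autophagosome, rose by 0.80 (adjusted p = 1.9e-05) in KO and by 0.40 (adjusted p = 0.0081) in WT. The WT calls of Sqstm1 (0.25, adjusted p = 0.26) and Gabarapl1 (0.26, adjusted p = 0.27) were lost with a common total.
Map1lc3a was at 3265.5, 4064 and 3509.9 in 20w KO, against 4032, 4429 and 4941 in 4w KO, where the ranges touched (-0.31, adjusted p = 0.028). In WT it was at 4018, 3673 and 3880.0 at 20w, against 4691, 4619 and 4968 at 4w, with no overlap (-0.30, adjusted p = 0.024). Its KO call was lost without the 4w KO library 2 or 3 or the 20w KO library 1 or 3. The WT call of Map1lc3a was lost without the 4w WT library 3 or the 20w WT library 2 or 3. With those single libraries left out the log2 changes were -0.31 to -0.23. The KO call was also lost with a common total (-0.21, adjusted p = 0.43) and with the compared groups alone. The WT call was also lost without the 4 libraries highest in Rn45s. Trim63, Trim55, Trim32, Bnip3 and Ctsl passed in neither genotype in the main test. With Rn45s left out of the total, Trim32 (-0.35, adjusted p = 0.0065) and Ctsl (-0.27, adjusted p = 0.019) fell in WT with limma. Trim32 in WT also passed with library weights, and Bnip3 in WT passed without the 4w WT library 3 (limma adjusted p = 0.046).

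**Figure D4:**
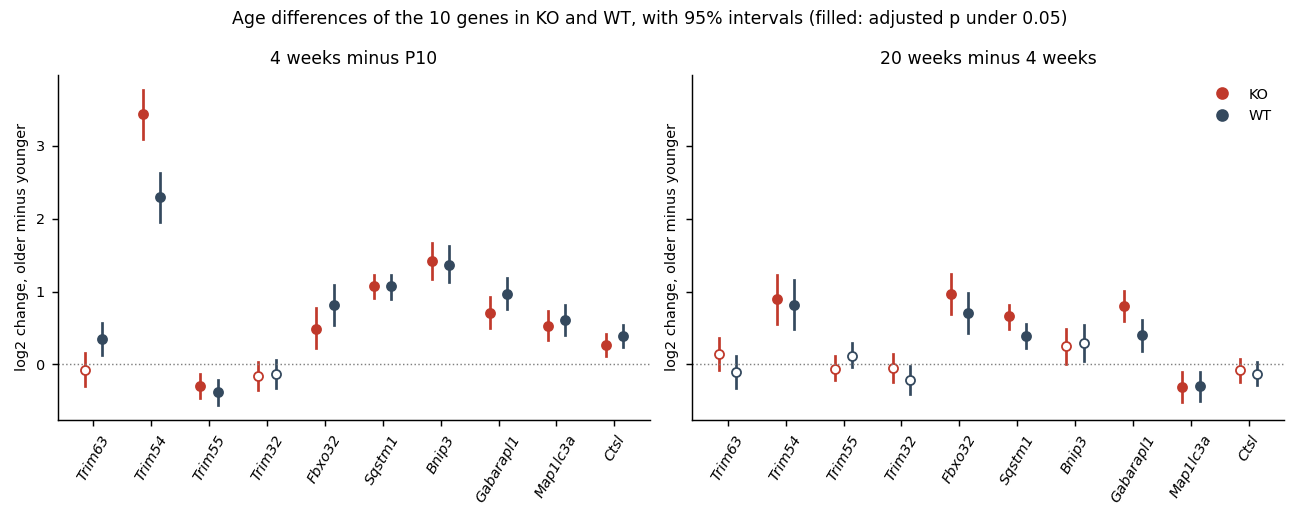
Log2 change (older minus younger) of the 10 genes from P10 to 4w and from 4w to 20w, with KO in red, WT in grey, 95% intervals from limma and filled points for adjusted p under 0.05. The largest change is that of Trim54 between P10 and 4w (3.43 in KO and 2.29 in WT), and between 4w and 20w Gabarapl1 is above 0 and Map1lc3a below 0 in both genotypes.

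Other genes of the same pathways were read from 6 lists with 156 entries, all of which were tested. The lists were chosen with earlier results of these data known, so their called shares are a description. Among 36 other ubiquitin ligases and their partners, 0 rose and 3 fell in KO at P10, 1 rose and 2 fell at 4w, and 5 rose and 2 fell at 20w. Those were 8.33%, 8.33% and 19.4% of the list at the 3 ages, against 2.26%, 5.65% and 7.49% of all genes. The median log2 change of the list was -0.04, 0.08 and 0.04 at the 3 ages, against -0.01, 0.00 and 0.01 over all genes. Ubb, a polyubiquitin gene, fell in KO at each age. At P10 it was at 483 ± 81.8 in KO and 1060.3 ± 22.8 in WT (log2 change -1.14, adjusted p = 0.00039). At 4w it was at 619.8 ± 67.2 in KO and 953 ± 207 in WT (log2 change -0.60, adjusted p = 0.035), and at 20w at 559.5 ± 149 in KO and 1149.7 ± 40.2 in WT (log2 change -1.07, adjusted p = 0.00027). Reads from ubiquitin repeats can map to more than 1 gene, so these values are uncertain. Ube2d1, a ubiquitin-conjugating enzyme (-0.46, adjusted p = 0.045), and the muscle ligase gene Trim72 (-0.47, adjusted p = 0.049) fell at P10. At 4w the ligase gene Huwe1 rose (0.30, adjusted p = 0.024) and the F-box gene Fbxo21 fell (-0.36, adjusted p = 0.026).
At 20w the F-box genes Fbxo40, which was at 4228 ± 352 in KO and 2988 ± 27.3 in WT (log2 change 0.50, adjusted p = 0.00021), and Fbxl22 (0.61, adjusted p = 0.0072) rose. Fbxo21 fell there too (-0.39, adjusted p = 0.015). The KO libraries of Fbxo40 lay above all WT libraries. The other 3 that rose at 20w were Klhl40 (0.84, adjusted p = 0.017), Klhl41 (0.41, adjusted p = 0.032) and Klhl31 (0.27, adjusted p = 0.042), all kelch-repeat proteins of muscle.

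Among 33 genes of autophagosome formation, 0 were called at P10 with limma, edgeR or DESeq2 (4 had an unadjusted p under 0.05 with limma), and 1 rose at 4w and 1 at 20w. At 3.03% of the list, the count was below the share of all genes called at 4w (5.65%) and at 20w (7.49%). Both calls were Wipi1, which encodes a phosphoinositide-binding protein of the forming autophagosome. At 4w it was at 1268 ± 53.5 in KO and 1041 ± 52.6 in WT (log2 change 0.29, adjusted p = 0.016), and at 20w at 1822 ± 92.7 in KO and 1322 ± 73.3 in WT (log2 change 0.46, adjusted p = 0.00019). The median of the list was -0.01 at P10, 0.00 at 4w and 0.00 at 20w.
Of 15 autophagy receptor and mitophagy genes, 1 rose at P10, 1 rose at 4w, and 1 rose and 1 fell at 20w, with list medians of 0.04, -0.04 and -0.01 at the 3 ages. The called share was 6.67%, 6.67% and 13.3%, against 2.26%, 5.65% and 7.49% of all genes, and rests on 1 or 2 genes at each age. Pink1, the kinase that marks damaged mitochondria, rose in KO at P10 (0.41, adjusted p = 0.023) and fell at 20w (-0.31, adjusted p = 0.046). The receptor gene Optn, which encodes optineurin, rose at 20w (0.33, adjusted p = 0.039), and Wdfy3, an autophagy scaffold, rose at 4w (0.30, adjusted p = 0.024).
Of 28 lysosomal genes 1 fell at P10, 0 were called at 4w with limma, edgeR or DESeq2 (3 with an unadjusted p under 0.05 with limma), and 2 rose and 2 fell at 20w, with medians of -0.04, -0.04 and 0.03. The 20w calls were 14.3% of the list, against 7.49% of all genes, and the 1 at P10 was 3.57%, against 2.26%. The 4w background was 5.65%. The protease gene Ctsd was at 18977 ± 1495 in KO and 14388 ± 890.2 in WT (log2 change 0.40, adjusted p = 0.0053) at 20w. Cd63 rose as well (0.50, adjusted p = 0.027). The lysosomal membrane genes Scarb2 (-0.46, adjusted p = 0.0039) and Npc1 (-0.50, adjusted p = 0.015) fell, and Ctsb fell at P10 (-0.29, adjusted p = 0.027).

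Of 30 regulators of the FoxO, TFEB, glucocorticoid, insulin and mTOR pathways, 0 were called at P10 with limma, against 1 with edgeR, 1 with DESeq2 and 9 with an unadjusted p under 0.05 with limma. In that list 3 rose and 1 fell at 4w, and 0 rose and 4 fell at 20w, with medians of 0.11, 0.09 and 0.00. Each of these counts was 13.3% of the list, against 5.65% of all genes called at 4w and 7.49% at 20w. Sesn1, a stress-induced inhibitor of mTORC1, fell at both later ages. At 4w it was at 2400.2 ± 67.1 in KO and 4009 ± 534 in WT (log2 change -0.73, adjusted p = 7.7e-06), and at 20w at 2159 ± 135 in KO and 3278.5 ± 87.9 in WT (log2 change -0.60, adjusted p = 6.7e-05). At 4w Irs1 (0.39, adjusted p = 0.015), Insr (0.29, adjusted p = 0.034) and Rptor (0.30, adjusted p = 0.037), parts of insulin and mTOR signalling, rose. At 20w Mitf (-0.44, adjusted p = 0.0068), a relative of TFEB, and Tsc22d3 (-0.51, adjusted p = 0.015), a glucocorticoid-induced gene, fell, as did Pik3r1 (-0.48, adjusted p = 0.038).
Of 14 sarcomere partners and substrates described for the MuRF proteins and Trim32, 1 rose at P10, 1 at 4w and 4 at 20w, and none fell, with medians of 0.03, 0.08 and 0.12. The called share was 7.14% at P10 and at 4w, where it was 1 gene, and 28.6% at 20w, against 2.26%, 5.65% and 7.49% of all genes. Myom2, an M-band protein, rose at P10 (0.52, adjusted p = 0.027), at 4w (0.54, adjusted p = 0.01) and at 20w (0.45, adjusted p = 0.027). Mybpc3, cardiac myosin binding protein C, was at 90881 ± 12688 in KO and 62411 ± 2754 in WT (log2 change 0.53, adjusted p = 0.004) at 20w. Ckm, muscle creatine kinase (0.46, adjusted p = 0.028), and Des, desmin (0.33, adjusted p = 0.037), rose there too. The plot of the pathway lists shows each gene.

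**Figure D5:**
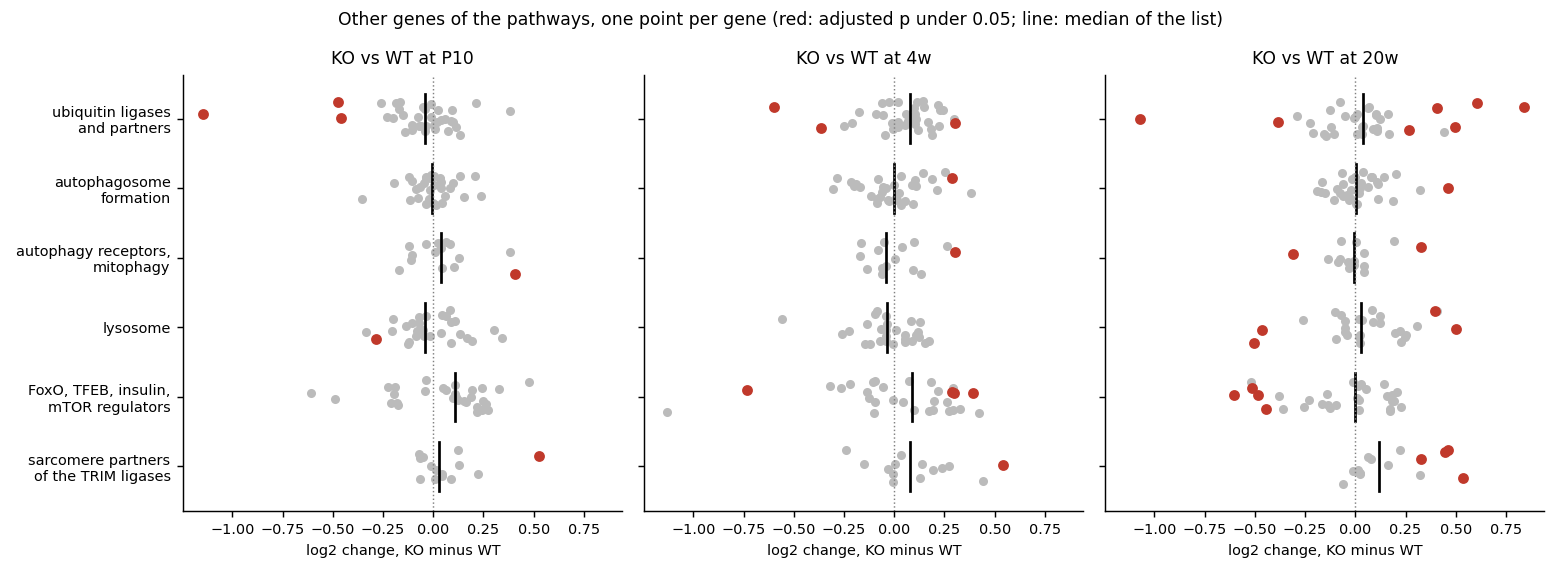
Log2 change (KO minus WT) of 156 other pathway genes at P10, 4w and 20w, with 1 point per gene, genes with adjusted p under 0.05 in red and the median of each list as a line. The medians of the lists lie between -0.04 and 0.12, and the lowest red point at P10 and at 20w is Ubb (-1.14 and -1.07).

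Genes that followed a member most closely were found by the Pearson correlation over the 18 libraries after taking off the mean of each age. Gene models without an ordinary name, such as Gm or Rik entries, were left out. This is a description of libraries that share groups, given with no p. For Trim54 the closest genes were Ogdhl (r = 0.93), Cmc2 (0.90) and Rasl10b (0.89). Ogdhl had log2 changes of -0.60 at P10, 0.32 at 4w and 0.31 at 20w, beside those of Trim54 of -0.89, 0.25 and 0.33. For Trim55 they were Cds2 (0.92), Cluh (0.92) and Cacna1c (0.91), the gene of the pore subunit of the cardiac L-type calcium channel.
Cacna1c had log2 changes of 0.32 at P10, 0.52 at 4w and 0.17 at 20w. For Sqstm1 they were Popdc3 (0.86), Zfp90 (0.85) and Ubr7 (0.83), and Popdc3 had a log2 change of 0.73 at 20w. For Fbxo32 they were Chmp1b (0.82), Dync1li2 (0.81) and Gopc (0.81).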

How the data were processed

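The authors deposited 1 table with a normalized count signal for 24391 gene entries and 18 libraries, named as normalized counts of DESeq2 per the labels. Per the submitters' processing notes, Bowtie2 2.0, the build mm9 and DESeq2 were used. How reads were counted, with which strand setting and gene models, is not given in the sources used here. Each library's values were whole multiples of what 1 read is worth, and dividing gave whole reads for 100% of values within 0.001 reads. These reads served edgeR 4.0.16 (quasi-likelihood, TMM) and DESeq2 1.42.0 as alternatives. Without unique molecular identifiers stated, counts may include copies.

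The main test was limma 3.58.1 (R 4.3.3) on log2(value + 1), with 6 group means, 18 libraries, genes with a mean of at least 10 (13032 genes), empirical Bayes moderation along a trend and Benjamini-Hochberg adjustment. A pseudocount of 1 understates changes of low genes. The fits were tested on simulated data. Replicates of a group differed by more than counting noise, so none was merged.

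The members and lists were chosen with earlier results of these data known. The text names all 10 members, Klf15, up to 4 called genes per list and comparison (Klhl40, Klhl41 and Klhl31 were added after their values were seen), and the 3 genes most like each of 4 members. Alternatives changed the pseudocount, filter, scaling, tool, replicate block, library weights and libraries. Annotation and lengths came from GENCODE (GRCm38) and promoters from RefSeq (GRCm38.p6), while the deposited values rest on mm9, of which no coordinates are given.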

Additional observations from a re-analysis of the deposited data

Results flagged for a closer look

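The difference in Trim54 between KO and WT was not the same at the 3 ages. The P10 libraries differ from the later ones in sex-linked transcripts as well as in age, and these cannot be told apart here. The KO effect at 4w was higher than at P10 by a log2 difference of 1.14 (± 0.23 SE, limma adjusted p = 0.016), and the effect at 20w was higher than at P10 by 1.21 (± 0.23 SE, limma adjusted p = 0.0047). All 3 KO libraries lay below all 3 WT libraries at P10. All 3 lay above at 20w, where the difference did not pass the test (0.33, limma adjusted p = 0.25). There the lowest KO value was 2424 and the highest WT value 2381. The lack of overlap is a description only, as the share of all genes without overlap is not given here. Without the 4 libraries highest in Rn45s neither interaction passed (1.10, adjusted p = 0.16, and 1.12, adjusted p = 0.054, with limma).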

How the results depend on the processing

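Counts are of genes called with limma unless a tool is named. P10 KO against WT gave 295 genes and 2 members. It gave 183 genes with no filter, 109 and 1 with a common total, 515 with edgeR and 562 with DESeq2. It gave 1384 and 3 with library weights, 193 and 1 without the 4 libraries highest in Rn45s, and 469 and 1 with the 2 groups alone. At 4w the 736 genes and 1 member became 212 and 0 without those 4 libraries. At 20w the 976 genes and 1 member became 408 and 0 with a common total and 473 without those libraries. The 164 genes and 1 member of the interaction of 4w with P10 became 92 and 0 (common total), 312 (DESeq2), 566 (weights), and 21 and 0 (without the 4 libraries). The 488 genes and 1 member of 20w with P10 became 160, 1004 (weights), and 301 and 0 (without the 4). The 25 genes of 20w with 4w became 7 (no filter), 12 (common total), 10 (common total without Rn45s), 15 (edgeR), 111 (DESeq2), 90 (weights), 5 (without the 4) and 64 (groups alone), with 0 members in each. Between 4w and 20w in WT the 3273 genes and 5 members became 1766 and 3 with a common total and 1752 without the 4 libraries. In KO the 2514 genes became 1219 and 1650.

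Leaving out 1 library at a time gave 110 to 295 genes and 1 to 2 members at P10, 374 to 674 genes and 1 to 2 members at 4w, and 581 to 1163 genes and 0 to 1 member at 20w. The interactions gave 65 to 234 genes (4w with P10), 276 to 594 (20w with P10) and 3 to 113 (20w with 4w). The counts moved by over 1.5 times when 1 of these libraries was left out: at P10 any but WT 1; at 4w WT 2, KO 1 or KO 2; at 20w WT 2, WT 3 or KO 3. For 4w with P10 they were P10 KO 1 or 2, 4w WT 2, and 4w KO 1 or 2. For 20w with P10 they were P10 WT 2, P10 KO 2 or 3, 20w WT 3 and 20w KO 3, and for 20w with 4w all 12 but 4w WT 3 and 4w KO 3.

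Deviations of same-numbered KO and WT libraries correlated at -0.25 to 0.12. Library 2 had the highest share of Rn45s in each group. It was 0.574% in P10 WT and 0.85% in P10 KO, 1.74% in 4w WT and 30.8% in 4w KO, and 2.72% in 20w WT and 1.7% in 20w KO. The 4 libraries left out for high Rn45s were thus all number 2. No label says whether equal numbers share handling, and these correlations cannot decide it. With the replicate block, 1 member was called at P10 (Trim55 was lost, adjusted p = 0.054) and 3 genes in the interaction of 20w with 4w, and no other call among KO and WT comparisons or interactions of members changed.

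Values changed sign, with Ctsl from P10 to 4w in KO the only 1 that had been called, for Sqstm1 at 4w (-0.16), Trim55 from 4w to 20w in WT (-0.02) and KO (0.04), Trim32 (0.05) and Ctsl (0.01) from 4w to 20w in KO, and Ctsl from P10 to 4w in KO (-0.23), all with a common total. Without Rn45s in that total, Trim55 in WT was again -0.02 and Ctsl -0.05. With library weights at P10, Trim32 was 0.02 and Fbxo32 0.03. Without the 4 libraries Ctsl at 20w was 0.10, Trim63 from P10 to 4w in KO 0.02, and Trim32 and Ctsl from 4w to 20w in KO 0.00 and 0.01. Leaving out 1 library gave ranges across 0 for KO minus WT of Fbxo32 (-0.14 to 0.08) and Map1lc3a (-0.11 to 0.03) at P10 and of Trim63 (-0.04 to 0.16) and Ctsl (-0.10 to 0.09) at 20w. It did so for Trim63 from P10 to 4w in KO (-0.13 to 0.02) and from 4w to 20w in WT (-0.18 to 0.03), and from 4w to 20w in KO for Trim32 (-0.11 to 0.03) and Ctsl (-0.17 to 0.01). Of the other single values, 1324 kept side and direction, 39 lost a call and 14 gained one. A common total lowers all other genes of a library rich in Rn45s by construction. Otherwise the cause was not tested. With 3 libraries a group, 95% intervals of members reached 0.34 on either side of a KO minus WT difference, which limits the differences that could be resolved.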
